A study of Mus musculus with 36 samples.

Results

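The homeobox genes described here are 48 developmental regulators that lie outside the Hox clusters. They were taken by name from the LIM (Lhx and Isl), Nkx, Dlx, Six2 to Six6, Irx, Emx, Otx, Gbx, En, Dbx and Msx families, and all 48 were found among the 21887 protein-coding genes of the RefSeq annotation of mouse build GRCm38.p6, the same build as mm10. The data are 4 lists of regions recovered by HA ChIP-seq, which isolates DNA bound to a tagged protein, from mouse embryonic stem cells. In all 4 groups the cells are of the line that the sample titles call parental, as opposed to knockout lines of the same series. They stably carried a PiggyBac transgene for histone H4 with an HA tag, in which the lysine at position K91 was glutamine (H4K91Q), arginine (H4K91R) or unchanged (H4WT), or they carried an empty vector and no tagged histone. Each group is 1 library, whose peaks were called against input DNA from the line itself. The tagged histone is made from an inserted transgene, the labels state no change to the cells' own H4 genes, and they do not say whether a line is a clone or a pool. The series has 36 samples, of which 32, among them inputs, neural derivatives and knockout stem cells, were not analysed here.

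Homeobox proteins bind DNA through a helix-turn-helix fold, the homeodomain, and set the identity of body regions, neurons and organs. In embryonic stem cells most of these genes are silent or nearly so, and their promoters are often rich in CpG dinucleotides and carry Polycomb-associated and activating histone marks together, a state called bivalent. Lysine K91 of H4 lies in the globular part of the histone, where the H3-H4 tetramer meets the H2A-H2B dimers. Arginine keeps the positive charge of lysine, whereas glutamine removes it and is often used in place of acetyl-lysine.

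After regions that overlap the empty-vector list were left out, the lists held 14206 regions for H4K91Q, 47898 for H4K91R and 67078 for H4WT. The empty vector gave 3007. Sequencing depth is unknown, because the lists give no reads, and list lengths can move with it. With 1 library per group there is no replicate check and no test between groups. The exact (Clopper-Pearson) 95% intervals below cover the counting of genes or regions only, and neighbouring genes are not independent. Peak lists hold no expression values, so the stem-cell identity of the lines was not checked.

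Most of the 48 genes had H4K91R and H4WT regions, and 1 had an H4K91Q region. A gene was called marked at an end when a region overlapped the 1 kb on either side of its first or last annotated base. H4K91Q marked 1 of 48 genes at an end (2.08%, interval 0.0527 to 11.1), close to its 1.27% of all protein-coding genes. H4K91R marked 41 (85.4%, 72.2 to 93.9), against 37.9% of all protein-coding genes. H4WT marked 45 (93.8%, 82.8 to 98.7), against 58.4% of all. The empty vector marked 1, against 1.67% of all. For H4K91R and H4WT the members' interval lay above the share of all genes, and for H4K91Q and the empty vector it included it.

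Counted over the whole gene and 1 kb on each side, H4K91R lay at 46 of 48 genes and H4WT at all 48, against 52.8% and 68.2% of all protein-coding genes. H4K91Q again lay at 1 of 48, against 7.26% of all, and the empty vector at 1, against 7.58%. Long genes collect more regions, and the homeobox genes are short, with a median of 6410 bp (2181 to 53696) against 17169 bp. Among the 3812 protein-coding genes from 4890 to 11710 bp, the middle 50% of the members' lengths, H4K91Q lay over 1.94%, H4K91R over 49.0%, H4WT over 66.9% and the empty vector over 4.75%. At an end of these genes the shares were 1.18%, 38.8%, 60.2% and 1.92%. The members' interval for H4K91Q, 0.0527 to 11.1%, includes the share of all genes and that of genes of like length.

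**Figure D1:**
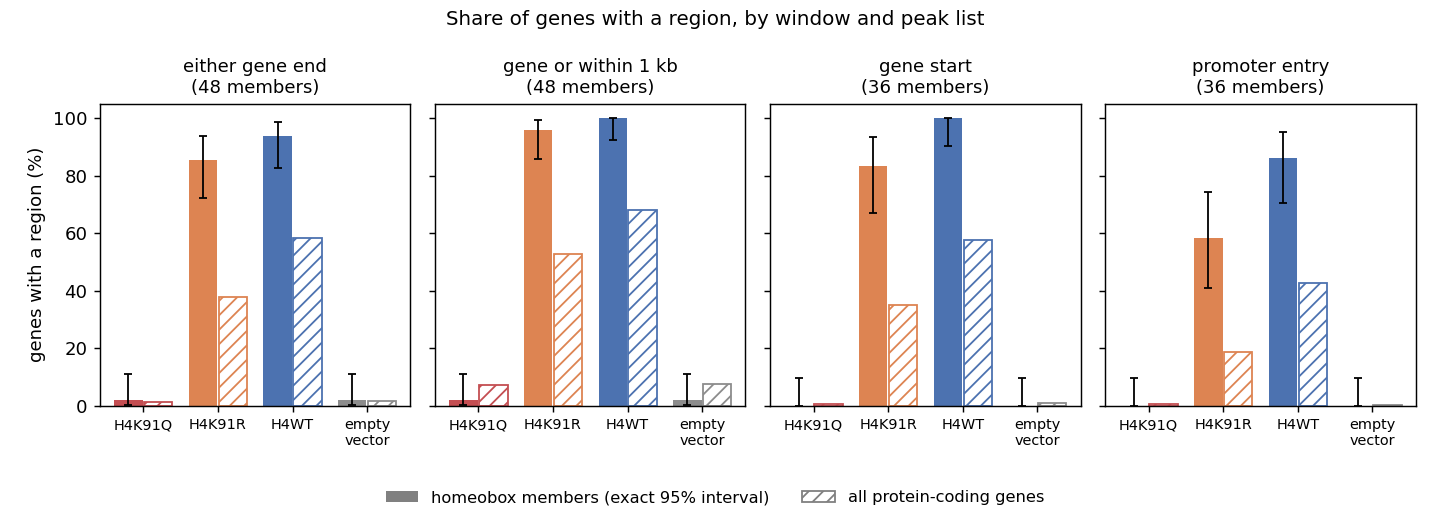
Share of genes (%) with a region in 4 windows, for 48 or 36 homeobox genes (filled bars, exact 95% interval) and all protein-coding genes (hatched bars), by peak list, 1 library each. In every window shown the H4K91R and H4WT bars of the homeobox genes stand above those of all genes, with 83.3% and 100% at gene starts, while the H4K91Q bars are at or near 0.

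The start of a gene was known for 36 of the 48 genes, from RefSeq promoter entries that reach from 250 bases before to 50 bases after the start. At the start and 1 kb on each side, H4K91R lay at 30 of 36 genes (83.3%, 67.2 to 93.6) and H4WT at 36 of 36 (100%, 90.3 to 100), against 35.0% and 57.5% of all protein-coding genes with a start. H4K91Q and the empty vector lay at 0 of 36, which allows a share of up to 9.74% each, against 0.657% and 0.858% of all. Dlx5 and Gbx1, which hold the 1 H4K91Q and the 1 empty-vector region of the 48 genes, have no known start. They are not among the 36, so the counts of 0 in this paragraph add nothing to the counts above. The 6 genes without H4K91R at the start were Lhx3, Lhx8, Lhx9, Nkx2-9, Six4 and Otx2. Over the 300 bases of the promoter entry itself H4K91R lay at 21 genes and H4WT at 31, against 18.5% and 42.7% of all, while H4K91Q and the empty vector lay at 0, against 0.394% and 0.234%. At the other end of the gene H4K91R lay at 12 and H4WT at 18 of the 36, against 10.7% and 17.3% of all. H4K91Q and the empty vector again lay at 0 there, against 0.835% and 1.04%.

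Member promoters were richer in CpG than the average promoter. The ratio of observed to expected CpG over the 300 bases had a median of 0.746 over 44 member entries, against 0.567 over 21263 entries of protein-coding genes. Among the 4456 protein-coding genes whose ratio lay between 0.662 and 0.887, the middle 50% of the members (the highest entry of each gene), H4K91Q was at the start of 0.696%, H4K91R of 51.5%, H4WT of 84.7% and the empty vector of 0.987%. The H4K91R and H4WT shares lie nearer to those of the members than the shares of all genes do, and are below the members' intervals. The letters GCGC, searched on both strands, stood in 34 of 44 member entries (77.3%) and in 57.6% of all entries. CACGTG, the same on both strands, stood in 4 member entries (9.09%, all entries 7.84%) and TATAAA, on either strand, in 4 (9.09%, all entries 12.6%). These are descriptions of letters in a window and not of binding.

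The promoters below show the range of marking, and were chosen after their values were seen. Each is the 250 bases before the start, 5′ to 3′, from RefSeq (GRCm38.p6), with every CpG in capitals. Both H4K91R and H4WT regions covered the whole entry of Dlx1 (chr2:71529195-71529444, plus strand), a regulator of forebrain interneurons, and of Lhx4 (chr1:155742028-155742277, minus strand), a regulator of pituitary and motor neuron development. Nkx2-1 (chr12:56536909-56537158, minus strand), which directs thyroid, lung and ventral forebrain, had H4K91R over the whole entry and no H4WT region there, although H4WT covered 41.2% of the gene and its surroundings. Lhx1 (chr11:84525535-84525784, minus strand), needed for head and kidney development, had H4WT over 291 of 300 bases and no H4K91R region there. Lhx8 (chr3:154330561-154330810, minus strand), a regulator of cholinergic forebrain neurons, had neither, and its entry held 4 CpGs against 27 at Dlx1.
Dlx1: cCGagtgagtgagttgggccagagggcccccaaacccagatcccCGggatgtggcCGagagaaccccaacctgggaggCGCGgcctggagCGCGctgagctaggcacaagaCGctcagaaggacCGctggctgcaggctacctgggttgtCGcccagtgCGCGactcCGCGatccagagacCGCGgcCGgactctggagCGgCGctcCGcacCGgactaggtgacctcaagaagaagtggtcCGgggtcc
Lhx4: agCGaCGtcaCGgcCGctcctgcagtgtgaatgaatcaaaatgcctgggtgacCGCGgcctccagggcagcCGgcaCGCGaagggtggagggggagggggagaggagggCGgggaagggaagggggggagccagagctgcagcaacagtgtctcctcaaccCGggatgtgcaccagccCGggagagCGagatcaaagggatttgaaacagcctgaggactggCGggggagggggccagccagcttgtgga
Nkx2-1: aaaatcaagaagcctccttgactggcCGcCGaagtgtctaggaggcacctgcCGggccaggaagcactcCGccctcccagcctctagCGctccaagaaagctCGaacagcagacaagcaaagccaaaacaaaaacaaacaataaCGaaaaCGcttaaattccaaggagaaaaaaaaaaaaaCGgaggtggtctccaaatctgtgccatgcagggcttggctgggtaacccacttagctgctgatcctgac
Lhx1: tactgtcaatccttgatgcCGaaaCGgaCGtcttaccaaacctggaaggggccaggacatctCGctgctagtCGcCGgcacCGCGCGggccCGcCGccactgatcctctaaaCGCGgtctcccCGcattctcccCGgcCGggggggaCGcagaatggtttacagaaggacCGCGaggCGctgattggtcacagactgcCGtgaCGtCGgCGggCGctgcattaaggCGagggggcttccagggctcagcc
Lhx8: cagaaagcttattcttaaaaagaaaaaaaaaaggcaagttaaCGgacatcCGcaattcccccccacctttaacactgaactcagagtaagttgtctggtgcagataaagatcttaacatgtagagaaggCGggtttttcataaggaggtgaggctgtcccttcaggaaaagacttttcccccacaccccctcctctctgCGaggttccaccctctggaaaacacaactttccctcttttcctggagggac
The CpG ratio of genes with and without a region overlapped among the members. The 21 genes with H4K91R over the promoter had a median CpG ratio of 0.767 (0.466 to 1.18), and the 15 without had 0.747 (0.241 to 0.972). For H4WT the 31 genes with a region had 0.791 (0.416 to 1.18) and the 5 without, Lhx8, Lhx9, Nkx2-1, Six3 and Six4, had 0.559 (0.241 to 0.747). Over all protein-coding genes with a start, the median was 0.792 with and 0.515 without H4K91R, and 0.804 with and 0.304 without H4WT.

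Around the start the regions leaned into the gene. H4K91R was most frequent 500 and 600 bases into the gene, where a region lay over 55.6% of the 36 members, against 16.7% at 500 bases before the start. H4WT lay over 72.2% at the start and again 300 bases into the gene, against 25% at 500 bases before it. In all 17492 protein-coding genes with a start, the highest shares were 18.3% for H4K91R and 41.4% for H4WT, each 200 bases into the gene. Farther in, the members had a second maximum, which all genes together did not show. At 1500 bases H4K91R lay over 8.33% and H4WT over 30.6% of members, and the highest shares between 2 and 3 kb were 25% and 38.9%, both reached 2300 bases into the gene, and again at 2500 bases for H4K91R and 2400 bases for H4WT. Over all genes the shares were 1.86% and 3.85% at 1500 bases, and at most 1.47% and 2.61% between 2 and 3 kb. Lower separate maxima also lay before the start, at 3000 bases for H4K91R (11.1%) and 2500 bases for H4WT (22.2%). Over all genes the shares at these places were 0.932% and 1.5%. With 36 genes these steps rest on few of them, and no test was made. The asymmetry was also in the summits: of those within 1 kb of a start, 11 of 42 for H4K91R (26.2%) and 16 of 65 for H4WT (24.6%) lay before the start, against 22.7% and 24.2% at all protein-coding genes.

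**Figure D2:**
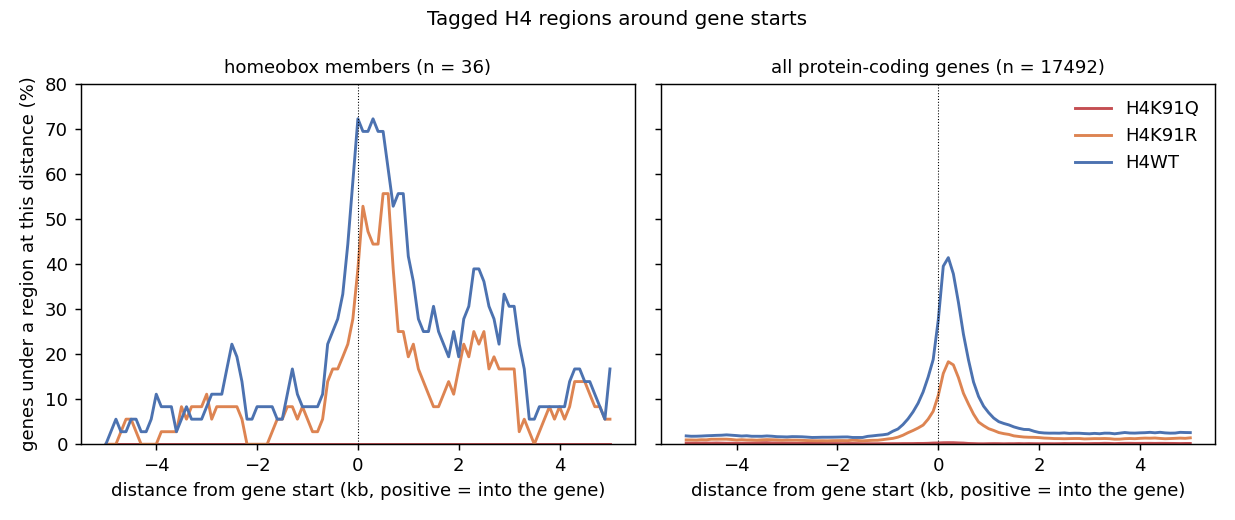
Share of genes (%) under a region at each distance from the gene start (kb, positive into the gene, in steps of 100 bases), for 36 homeobox genes (left) and 17492 protein-coding genes (right), by tagged histone, 1 library each. H4K91R reaches 55.6% and H4WT 72.2% in the homeobox genes, just inside the gene, against 18.3% and 41.4% in all genes. H4K91Q lies along the axis (0% of these 36 genes at every distance), and Dlx5 is not among the 36.

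A larger share of the homeobox genes lay under H4K91R and H4WT regions than of other genes. A member had a median of 3 H4K91R regions (0 to 8) and 4 H4WT regions (1 to 11), against 1 and 1 in all protein-coding genes. At least 4 regions lay at 19 members for H4K91R (39.6%) and at 32 for H4WT (66.7%), against 11.8% and 20.9% of all protein-coding genes, and 7.63% and 20.7% of those from 4890 to 11710 bp. The share of bases under a region, over the gene and 1 kb on each side, had a median of 13.3% for H4K91R (0 to 43.4) and 23.8% for H4WT (1.91 to 54.1). All protein-coding genes had medians of 0.23% and 1.25%, and those from 4890 to 11710 bp had 0% and 4.29%. At least 10% was covered by H4K91R at 29 members (60.4%) and by H4WT at 38 (79.2%), against 6.24% and 15.4% of all protein-coding genes, and 11.4% and 29.3% of those of like length. For H4K91R 34 members, and for H4WT 33, were in the top 10% of all protein-coding genes by this share.

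Regions at the members were also wide for their lists. The 154 H4K91R regions had a median width of 350 bp, against 272 bp at all protein-coding genes, and 8 of them (5.19%) were 1 kb or more, against 1.41%. The 226 H4WT regions had a median width of 384 bp, against 281 bp, and 23 (10.2%) were 1 kb or more, against 2.75%. No region belonged to more than 1 member. By the authors' fold over input, which is read here only within a list, the median member region stood at the 60.6th percentile of the H4K91R list and at the 68.9th percentile of the H4WT list.

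Most H4K91R regions at these genes met an H4WT region by at least 1 bp. Of 154 H4K91R regions, 142 overlapped H4WT (92.2%, 86.8 to 95.9), against 67.4% of the H4K91R regions at all protein-coding genes. From the other side, 139 of 226 H4WT regions overlapped H4K91R (61.5%, 54.8 to 67.9), against 38.7% at all protein-coding genes. With an overlap of 50% of each region the shares were 55.2% for H4K91R, against 39.0% at all protein-coding genes, and 37.6% for H4WT, against 23.2%. H4K91Q met 1 of the 154 H4K91R regions (0.649%, 0.0164 to 3.56), against 7.10%, and 0 of the 226 H4WT regions, which allows up to 1.62%, against 1.90%. These last shares are not limited to genes of like length, of which H4K91Q lay over 1.94%, against 7.26% of all. Regions of the same gene are also not independent. The 12 H4K91R regions without H4WT lay at 10 genes (2 each at Lhx4 and Irx6, and 1 each at Lhx6, Lhx9, Nkx2-1, Nkx2-2, Six6, Otx1, En2 and Dbx2), and had folds from 3.81 at Lhx9 to 7.01 upstream of Nkx2-1. Of the 45 genes with H4WT at an end, 41 also had H4K91R at an end (91.1%, 78.8 to 97.5), against 61.3% of all genes with H4WT there. These shares depend on how common H4K91R is at any end, 85.4% of the 48 genes and 37.9% of all protein-coding genes. Region overlap likewise depends on covered bases, and H4WT regions covered 17.6% of member bases, against 1.84% at all protein-coding genes. Whether sharing exceeds what these base shares give was not tested. At an end, 4 genes (Lhx3, Lhx4, Lhx8 and Six4) had H4WT alone, against 22.6% of all protein-coding genes. No tagged region was found at an end of 3 (Isl2, Six3 and Otx2), against 39.4% of all. None had a mutant without H4WT. Of all protein-coding genes 1.95% had H4K91R alone, 0.123% H4K91Q alone and 0.146% both mutants. With shares this low, none among 48 genes is not a result about the members.

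Sharing was more frequent near a start than elsewhere, in the members and in all protein-coding genes alike. Of the H4WT regions of genes with a known start, 45 of 65 with a summit within 1 kb of a start met H4K91R (69.2%), and 58 of 109 farther away (53.2%). At all protein-coding genes with a start these shares were 48.7% and 33.9%. Of the H4K91R regions, 41 of 42 near a start met H4WT (97.6%), and 64 of 71 farther away (90.1%), against 90.6% and 56.9% at all protein-coding genes. The differences were not tested.

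**Figure D3:**
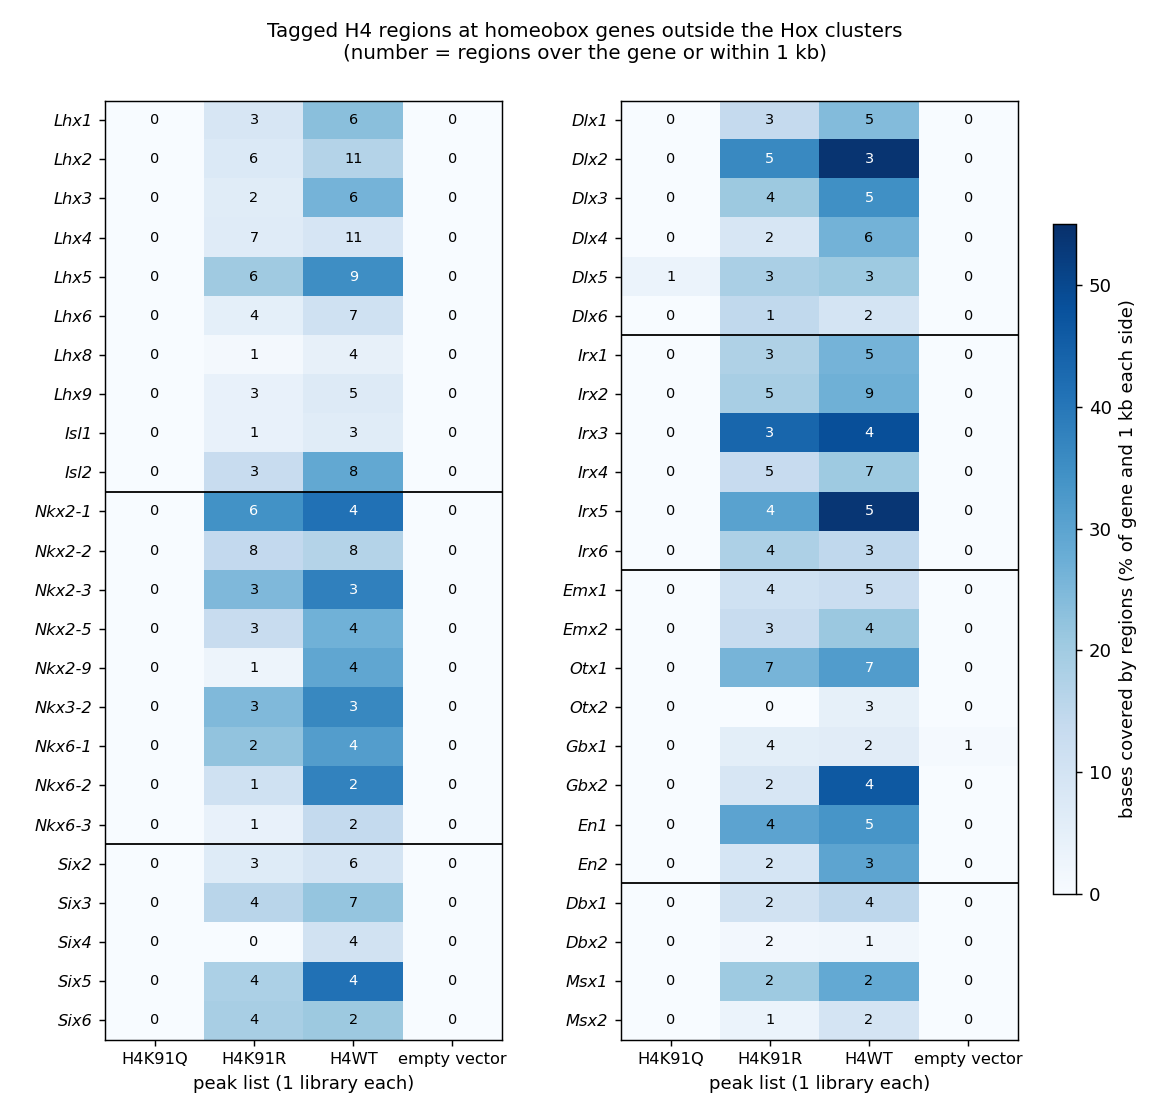
Bases under a region (colour, % of the gene and 1 kb on each side) and number of regions (printed) for each of the 48 homeobox genes, by peak list from H4K91Q at the left to the empty vector at the right, 1 library each. H4K91R and H4WT fill most rows, Otx2 and Six4 have no H4K91R region, Dlx5 has the 1 H4K91Q region and Gbx1 the 1 empty-vector region.

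The LIM homeobox genes, which combine a homeodomain with protein-binding LIM domains and specify neuron types, included the longest member, Lhx4 with 53696 bp, and had lower covered shares than the 48 genes together. H4K91R marked 6 of 10 at an end and H4WT 9, against 37.9% and 58.4% of all protein-coding genes. Both lay over all 10 counted along the gene, against 52.8% and 68.2% of all. Each family here and below holds few genes, and no family was tested. Their covered share had a median of 6.50% for H4K91R (1.13 to 20.4) and 13.9% for H4WT (4.47 to 35.1). Lhx4 held the strongest H4WT region of all 48 genes, at chr1:155741681-155743367, which spans the start, is 1687 bp wide and has a fold of 15.4, at the 99.9th percentile of its list. An H4K91R region of 1334 bp with a fold of 10.4 lay within it. The annotated gene extends upstream of this start to base 155751726, so this H4K91R region lies outside both end windows. Lhx2, a selector of eye and cortex, had 6 H4K91R and 11 H4WT regions, and its strongest H4WT region had a fold of 12.7. Lhx5, a forebrain regulator, was the most covered LIM gene, with 20.4% under H4K91R and 35.1% under H4WT, and its strongest H4WT region had a fold of 13.2.

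Several LIM genes were marked unevenly. At Lhx3, a partner of Lhx4 in pituitary and motor neurons, 2 H4K91R and 6 H4WT regions were found, and both H4K91R regions had summits over 3 kb into the gene, 4031 and 3538 bp from the nearest of its starts, where they met H4WT. The H4WT regions nearest to the starts, with summits 144 and 546 bp away, met no H4K91R region. Lhx8 had 1 H4K91R region and 4 H4WT regions. Isl1, a motor neuron and heart regulator, had 1 H4K91R region, which covered its promoter entry, and 3 H4WT regions. At Isl2, also a motor neuron gene, 3 H4K91R and 8 H4WT regions lay inside the annotated gene, and the nearest stood 1286 and 1060 bp from an end, outside the 1 kb window. Lhx1 had 3 H4K91R and 6 H4WT regions, Lhx6 (a regulator of cortical interneurons) 4 and 7, and Lhx9 (a regulator of gonad formation) 3 and 5.

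All 9 Nkx genes were marked at an end by H4K91R and by H4WT, against 37.9% and 58.4% of all protein-coding genes. These regulators of ventral neural tube, foregut, heart and skeleton had a median covered share of 14.2% for H4K91R (2.70 to 34.3) and 31.5% for H4WT (14.1 to 41.2). Nkx2-1 had 6 H4K91R regions over 34.3% of its bases and 4 H4WT regions over 41.2%. Nkx2-2, a ventral spinal cord and pancreas regulator, had 8 regions in each list, the most H4K91R regions of any member. Nkx6-1, which acts in beta cells and motor neurons, had an H4WT region of 1811 bp with a fold of 12.5, and an H4K91R region of 1381 bp. Nkx2-9 had the least H4K91R in the family, with 1 region over 2.70% of its bases, against 4 H4WT regions over 29.4%. Nkx6-2, an oligodendrocyte regulator, was similar, with 11% under H4K91R and 37.4% under H4WT. Nkx2-3 and Nkx3-2 (a cartilage regulator) had 3 regions in each list. Nkx2-5, the heart regulator, had 3 H4K91R and 4 H4WT regions, and Nkx6-3 had 1 and 2.

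All 6 Dlx genes, regulators of forebrain interneurons, jaw and limb that lie in convergent pairs, were marked at an end by H4K91R and by H4WT. The shares of all protein-coding genes marked there were 37.9% and 58.4%. Dlx2 had the highest H4WT share of all 48 genes, with 3 H4WT regions over 54.1% of its bases, and 5 H4K91R regions over 36.2%. Dlx1 shared a start region between the lists, with the same first base, 71528799 on chromosome 2, and a fold of 10.4 for H4K91R (842 bp) and 13.7 for H4WT (965 bp). Dlx3 had 4 H4K91R and 5 H4WT regions, Dlx4 had 2 and 6, and Dlx6 had 1 and 2. Dlx6 and Irx6 were the 2 members with a higher covered share in H4K91R than in H4WT, at 14.4% and 9.69% for Dlx6. The H4WT list is the longer list, and the share of all protein-coding genes with this order is not given here, so this count does not compare the histones.

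Dlx5 had the 1 H4K91Q region found among the members. It spans chr6:6878681-6878893, is 213 bp wide and has a fold of 3.48 and a −log10 q of 2.87. Its fold is at the 4.68th percentile of the H4K91Q list, so it is among the weakest regions there. It overlapped an H4K91R region of 634 bp and no H4WT region, although an H4WT region with a fold of 10.6 ended at base 6878530, before it. Dlx5 had 3 H4K91R and 3 H4WT regions in all.

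The space between paired genes, from 1 kb outside each, held regions in each of 5 pairs, with the highest covered share between Dlx1 and Dlx2. The 7426 bp between these had 0 H4K91Q, 4 H4K91R and 4 H4WT regions, over 12.9% of the bases for H4K91R and 20.1% for H4WT. Between Dlx5 and Dlx6 there were 1 H4K91R and 2 H4WT regions in 7830 bp, and between Dlx3 and Dlx4 1 and 3 in 13150 bp. Between Six2 and Six3 there were 1 and 3 in 34544 bp. Between Nkx2-1 and Nkx2-9, 72480 bp apart in this measure, there were 0 and 1. No protein-coding gene lies in these 5 gaps, and no H4K91Q or empty-vector region was found in them.

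Among the 5 genes Six2 to Six6, H4K91R marked 3 at an end and H4WT 4, against 37.9% and 58.4% of all protein-coding genes. Six4, a muscle regulator, had no H4K91R region, and the nearest lay 23116 bp from an end. It had 4 H4WT regions over 10.6% of its bases, the widest 822 bp with a fold of 7.99. Six3, a selector of the anterior forebrain and eye, was among the 5 members of highest H4K91R fold, with a region of 1125 bp and a fold of 10.4 whose summit lay 741 bp into the gene. It was marked at an annotated end by neither, with the nearest regions 1258 bp (H4K91R) and 1262 bp (H4WT) away. Six2, which maintains kidney progenitors, had an H4K91R region of 1301 bp, and Six6, an eye and pituitary regulator, had 4 H4K91R and 2 H4WT regions. Six5 was the most covered for H4WT, at 41.2%, with 18.1% for H4K91R, but the coding genes Dmpk and Bhmg1 lie within 1 kb of it, so its regions cannot be assigned to it alone.

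All 6 Irx genes, which pattern heart, limb and neural tissue from clusters of 3 on chromosomes 8 and 13, were marked at an end by H4K91R and by H4WT. The shares of all protein-coding genes marked there were 37.9% and 58.4%. Irx3 had the highest H4K91R share of all 48 genes, with 3 regions over 43.4% of its bases, and 4 H4WT regions over 48.4%. Irx5 had 4 H4K91R regions over 30.4% and 5 H4WT regions over 53.6%. Irx6, the third gene of that cluster, was lower, with 17.9% for H4K91R and 14.7% for H4WT, and 2 of its 4 H4K91R regions met no H4WT region. In the other cluster Irx1 had 17.8% under H4K91R and 26.2% under H4WT, Irx2 had 18.8% and 26.9%, and Irx4 had 13.4% and 20.5%.

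The Emx, Otx, Gbx and En genes divide the anterior neural tube into regions. H4K91R and H4WT each marked 7 of these 8 at an end, against 37.9% and 58.4% of all protein-coding genes. Their median covered shares were 10.2% for H4K91R (0 to 29.9) and 25.4% for H4WT (4.59 to 46.2). Otx1, a cortical regulator, had 7 regions in each list, over 25.9% of its bases for H4K91R and 31.6% for H4WT. The region at chr11:21992795-21994025 was the strongest H4K91R region counted at any member, with a fold of 14.2 at the 98.8th percentile, and an H4WT region of 1146 bp lay there too. Both lie outside the annotated Otx1 gene, which begins at base 21994764, and only part of each is within 1 kb of it. A long non-coding gene, Gm32517, is also annotated within 1 kb of Otx1. Otx2, a head selector that embryonic stem cells also use as they leave the naive state, had no H4K91R region and 3 narrow H4WT regions of 194, 200 and 197 bp over 4.59% of its bases. Their folds of 5.08, 4.59 and 5.36 stood at the 34.3rd, 19.9th and 42nd percentiles of the H4WT list, and the nearest H4K91R region was 1391 bp outside the gene.

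Gbx2, which acts with Otx2 at the midbrain-hindbrain border, had 2 H4K91R regions over 8.94% of its bases and 4 H4WT regions over 46.2%. A protein-coding locus without a gene name is annotated within 1 kb of it. Gbx1 had 4 H4K91R and 2 H4WT regions and the 1 empty-vector region of the members, at chr5:24504785-24504975. That region overlapped an H4K91R peak of 234 bp and an H4WT peak of 342 bp, which were left out for this reason and are not among the 4 and 2. En1, a midbrain and limb regulator, had 29.9% under H4K91R and 33.5% under H4WT. En2 had 9.36% and 29.7%, with an H4WT region of 1907 bp, the widest of all members. Emx1 and Emx2, regulators of the cortex, had 11.1% and 12.9% under H4K91R, and 12.5% and 21.0% under H4WT.

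The 4 Dbx and Msx genes were all marked at an end by H4K91R and by H4WT, against 37.9% and 58.4% of all protein-coding genes. Msx1, a tooth and craniofacial regulator, had the second highest H4K91R fold among the members, 11 at a region of 1021 bp over its start, with an H4WT fold of 11.3 in a region of 1236 bp. Msx2 had 1 H4K91R and 2 H4WT regions, over 3.39% and 9.67% of its bases. Dbx1, a regulator of spinal interneurons, had 2 H4K91R and 4 H4WT regions. Dbx2, the second longest member, had the lowest H4WT share of all, with 2 H4K91R regions over 1.49% and 1 H4WT region over 1.91% of its bases.

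**Figure D4:**
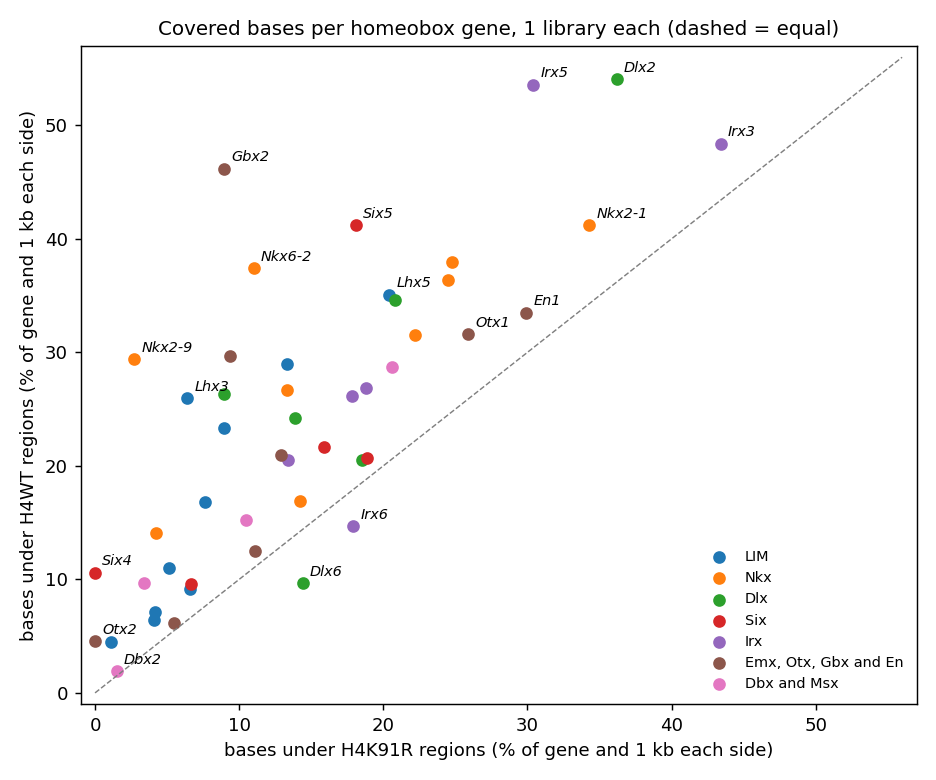
Bases under H4K91R regions (x axis) and under H4WT regions (y axis), as % of the gene and 1 kb on each side, for each of the 48 homeobox genes coloured by family, 1 library each. Dlx6 and Irx6 lie below the dashed line of equal share, Dlx2, Irx3 and Irx5 are highest, and Otx2 and Six4 are at 0 for H4K91R.

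Across the 48 genes the covered shares of the 2 lists moved together, with a Spearman's rho of 0.75 and a Pearson's r of 0.78. The points share the genome annotation and the length of each gene, and genes are not independent replicates. Gene length went with a lower share, with a rho of −0.57 for H4K91R and −0.74 for H4WT. The share is divided by the length of the gene and 1 kb on each side, so length is part of the measure itself. H4K91R had fewer regions than H4WT at 35 genes, as many at 7 and more at 6 (Nkx2-1, Dlx2, Six6, Irx6, Gbx1 and Dbx2). The H4WT list is the longer list, so these counts do not compare the histones.

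For H4K91R and H4WT the surroundings of the genes were closer to those of all protein-coding genes than the genes themselves were. From 1 to 50 kb outside the members there were 1.91 H4K91Q, 38.1 H4K91R and 75.3 H4WT regions per Mb, counted by their midpoints, against 7.77, 40.3 and 67.7 in the same flanks of all protein-coding genes. Within the genes and 1 kb there were 1.65, 248 and 367 per Mb, against 3.22, 29.3 and 49.7 for all protein-coding genes. The H4K91Q values rest on 9 regions in the flanks and 1 in the genes. The empty vector was also lower in these flanks, with 1.06 per Mb from 5 regions, against 2.69, so a low value there was not particular to H4K91Q. Nearer to the members, from 1 to 20 kb, H4K91R had 55.4 per Mb, against 40.9. H4WT there was likewise above the 69.6 of all protein-coding genes, and H4K91Q was below, with 2.74 against 7.57. The near flanks were thus raised for H4K91R and H4WT, though less than the genes. Another annotated gene lay within 1 kb of 27 members, mostly long non-coding and antisense transcripts such as Dlx1as and Six3os1. For 5 (Lhx3, Nkx6-2, Six4, Six5 and Gbx2) it was protein-coding, and a region there cannot be given to a single gene.

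Other homeobox genes outside the Hox clusters gave similar shares. Of 56 such genes, among them Barhl, Gsx, Meis, Pbx, Pitx, Prrx, Tlx and Vax members, H4K91Q marked 1 at an end, H4K91R 46 (82.1%, 69.6 to 91.1) and H4WT 51 (91.1%, 80.4 to 97.0). The shares of all protein-coding genes were 1.27%, 37.9% and 58.4%. Their median covered share was 9.81% for H4K91R and 17.4% for H4WT, below the 13.3% and 23.8% of the 48 genes. Cofactors that homeobox proteins act through, such as Ldb1, the Lmo, Ssbp, Eya and Dach families and the Tle corepressors, were closer to all genes. Of 21, H4K91Q marked 0 at an end, H4K91R 10 (47.6%, 25.7 to 70.2) and H4WT 16 (76.2%, 52.8 to 91.8), with both intervals including the share of all protein-coding genes. Their median covered share was 1.34% for H4K91R and 2.25% for H4WT.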

How the data were processed

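HA ChIP-seq peak lists of 4 libraries were used, 1 per group, with groups taken from the sample titles. Per the submitters' processing notes, peaks were called with MACS2 on mm10. The peak names show a call against input from the same line. No source used here gives the aligner, the versions or the threshold on q. In 100% of peaks the deposited score was 10 times the −log10 q without its decimals. The authors' fold, a ratio over background at the summit, was used within a list only. The −log10 q as deposited by the authors served to filter and shorten lists, and their −log10 p was not used.

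Peaks that overlap or adjoin were merged, which joined 0 peaks, and tagged regions were dropped where they touched a region of the empty vector (108 for H4K91Q, 1257 for H4K91R, 2080 for H4WT). Overlaps needed 1 bp. Genes came from the RefSeq table of GRCm38.p6, and starts from its promoter table, which holds 36 of the 48 genes. For the 5 genes with several starts any start counted, and the outermost was used for the profile. Python 3.11.15 with pandas 2.3.3 and SciPy 1.17.1 did the computing. The marking and overlap steps were tested on simulated regions and found 100% of those planted.

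The members and lists were chosen with earlier results of these data known. Every member is described, with full values for the 5 of highest fold per list and for those with H4K91Q or empty-vector regions, with no H4K91R region, or otherwise singled out, which were chosen after their values were seen. Genes of like length or CpG ratio were added as a background after the data were seen. Depth is unknown, and no p-value is given.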

Additional observations from a re-analysis of the deposited data

How the results depend on the processing

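No paired analysis was possible because each group holds 1 library and no test was made. For H4K91R and H4WT, the counts of genes marked at an end or over the gene stayed within 1.5 times with a −log10 q of 5 or more, windows of 500 bp or 2 kb, gene starts alone, empty-vector regions kept, or neighbours within 100 kb counted as 1 locus (43 loci). In lists of equal length (14314 peaks each) the H4WT counts and the H4K91R count over the gene also did, with H4WT at an end of 35 genes, against 29.2% of all protein-coding genes. Over the gene H4WT then lay at 42 of 48, against 36.7% of all, and H4K91R at 36, against 24.6%. The exception is H4K91R at an end, which marked 27 of 48 there, against 14.1% of all. The counts at gene starts are out of 36 genes and those of loci out of 43, so they are not like for like with 48. The shares of all protein-coding genes at an end moved too. For H4K91R they were 25.1% with a −log10 q of 5 or more, 31.8% with 500 bp and 43.7% with 2 kb. For H4WT they were 54.0%, 53.7% and 62.5%. With a −log10 q of 5 or more H4K91Q marked 0 genes at an end, against 1.01% of all protein-coding genes. It then lay over 0 genes, against 6.01% of all, since its 1 region, at Dlx5, has a −log10 q of 2.87. With windows of 500 bp it marked 0 at an end (also 0 of the Dlx genes), against 0.923% of all. That region lies 880 bp from the end of Dlx5. At gene starts alone it marked 0 of 36, against 0.657% of all, but Dlx5 has no known start and is not among the 36. Covered bases pooled over the members were 0.0352% for H4K91Q, 10.6% for H4K91R and 17.6% for H4WT. They became 0%, 8.27% and 16.0% with a −log10 q of 5 or more, and 5.92% for H4K91R and 9.85% for H4WT in lists of equal length. In lists of equal length all protein-coding genes had 0.384% and 0.722%. The share of H4K91R regions that meet H4WT was 70.8% in lists of equal length and 55.2% with an overlap of 50% of each region, against 45.5% and 39.0% at all protein-coding genes. The share of H4WT regions that meet H4K91R was 52.7% with a −log10 q of 5 or more and 37.6% with an overlap of 50%, against 29.2% and 23.2%. The members without any H4K91R region were Six4 and Otx2 in the complete lists, joined by Nkx6-3, Isl1 and Dbx2 with a −log10 q of 5 or more, and 12 in lists of equal length. H4WT was absent from 6 members in lists of equal length, Lhx8, Lhx9, Isl1, Emx2, Otx2 and Msx2. Unknown depth limits every count, since a missing region shows only that none was called.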

Other observations

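Among the 56 other homeobox genes, the 1 gene with an H4K91Q region was Uncx, a regulator of vertebral patterning. This is 1.79%, against 1.27% of all protein-coding genes at an end and 7.26% over the gene. Of the 21 cofactor genes, Eya2 and Ssbp2 had an H4K91Q region over the gene (9.52%, 1.17 to 30.4), near the 7.26% of all protein-coding genes. Each had an empty-vector region there too. Tagged regions that overlap an empty-vector region had been left out beforehand, so the 2 kinds could not overlap.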
